A study of Mus musculus with 12 samples.

Results

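Long-term haematopoietic stem cells (LT-HSCs) from bone marrow of Trim47-/- mice were compared 10 days after 5-fluorouracil (5-FU) with LT-HSCs from untreated Trim47-/- mice. The comparison used 6 of the 12 libraries of the series, 3 per group, and all genes were examined: 16319 of the 28999 genes in the count table passed the filter on low counts and were tested. The remaining 6 libraries came from wild-type mice, 3 after 5-FU and 3 untreated, and were used for the fit and to set the Trim47-/- response beside the wild-type response. All libraries were poly-A selected, stranded and paired-end, and all came from mouse bone marrow. The sources used here do not give mouse age and sex, the 5-FU dose, the surface gate, the deleted part of Trim47, or whether animals were pooled. With the animals behind each library unknown, a p-value measures only how these libraries vary, and that variation may be technical.

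5-FU is a pyrimidine analogue that blocks thymidylate synthesis and is built into RNA and DNA, so that it kills cycling marrow progenitors and largely spares quiescent stem cells. The loss of mature blood cells that follows draws LT-HSCs into division, after which they return to rest and the marrow is refilled, with myeloid and erythroid cells among the early products. Trim47 encodes a RING-domain protein of the tripartite motif family of ubiquitin ligases.

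Library totals were 13919649 to 13953510 counts in Trim47-/- after 5-FU and 20661120 to 20703198 counts in Trim47-/- untreated, so the groups also differed in depth. Thinning every library to the smallest total left 4690 genes higher and 4878 lower, against 4837 and 5031 at full depth. Replicates lay close to counting noise for most genes: the median chi-square per degree of freedom was 1.08 after 5-FU and 1.09 untreated, where counting noise alone gives 0.693. A minority of genes was spread far more widely. The libraries of some of them are given one by one where they are named, and for others only the SE is given. Mitochondrial rRNA took 0.247% to 0.249% of counts after 5-FU and 0.157% to 0.160% untreated, long non-coding RNA 0.362% to 0.368% and 0.488% to 0.490%, and pseudogenes 9.41% to 9.44% and 8.54% to 8.60%. The part of these differences in the results below was not tested.

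The targeted gene was detected in every library. Trim47, at chr11:116105752-116127210 on GRCm38, had 10.1, 12.2 and 11.6 CPM after 5-FU, against 23.7, 18.9 and 16.6 CPM in untreated libraries (CPM, counts scaled to a common library size after TMM adjustment). All libraries after 5-FU lay below all untreated ones, and the fitted log2 change was -0.80 ± 0.12 (SE, adjusted p = 1.45e-04) by edgeR's quasi-likelihood test with Benjamini-Hochberg adjustment over all genes, which holds for every adjusted p given here. Trim65, a ubiquitin ligase gene at chr11:116121846-116131128 that overlaps Trim47 on the same strand, had 15.3, 13.5 and 17.6 CPM after 5-FU, against 22.9, 26.8 and 25.0 CPM in untreated libraries. Its log2 change was -0.68 ± 0.10 (SE, adjusted p = 8.37e-05). In wild type, Trim47 had 38.1, 33.3 and 34.7 CPM after 5-FU, against 24.6, 23.8 and 24.7 CPM in untreated libraries. The mean of the untreated libraries was thus 19.7 CPM in those labelled Trim47-/- and 24.4 CPM in wild type. Reads of the pair may not have been assigned apart, and with the deleted part unknown the Trim47 count does not check the genotype, which is taken throughout from the labels. Both calls were lost in a test against a change of at least 1.5-fold, with adjusted p = 0.089 for Trim47 and 0.274 for Trim65. Of the 19 tested genes in the Trim47 neighbourhood, 6 rose (31.6%) and 9 fell (47.4%), none by 2-fold. Of all tested genes 29.6% rose and 30.8% fell. The neighbourhood list holds Trim65, and its lowest log2 change, -0.80, equals that of Trim47, so its falls are not apart from those given above.

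The LT-HSC label was checked on length-scaled levels (FPKM). The stem cell gene Procr averaged 5.33 ± 0.344 FPKM after 5-FU and 10.3 ± 0.638 FPKM untreated (SD, n = 3), and Mecom, a transcription factor needed for stem cell maintenance, averaged 2.01 ± 0.154 FPKM after 5-FU and 2.89 ± 0.412 FPKM untreated. Slamf1, which encodes the CD150 antigen used to sort LT-HSCs, averaged 0.881 ± 0.0518 FPKM after 5-FU and 0.442 ± 0.0179 FPKM untreated. Genes of later progenitors stood higher: Flt3, the receptor lost from LT-HSCs and gained by multipotent progenitors, averaged 71.5 ± 0.638 FPKM after 5-FU and 146 ± 2.45 FPKM untreated, Cd34 73.3 ± 0.0761 FPKM after 5-FU and 76.0 ± 2.28 FPKM untreated, and the granule enzyme gene Mpo 676 ± 47.9 FPKM after 5-FU and 355 ± 4.79 FPKM untreated. Stem cell markers were therefore detected, but progenitor transcripts stood at higher levels in both groups. These levels do not establish the LT-HSC name, which is used here as given in the sample titles. Of the 20 tested surface marker genes used in stem cell gates, which overlap the lists below, 8 rose and 7 fell after 5-FU. These shares were 40% and 35%, against 29.6% and 30.8% of all tested genes.

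After 5-FU, 9868 of 16319 tested genes (60.5%) differed from untreated Trim47-/- cells at an adjusted p under 0.05. Of these, 4837 were higher (29.6% of all tested genes) and 5031 lower (30.8%). Counts of list members that rose or fell are to be read against these shares. Changes of at least 2-fold were less even: 657 genes were higher by that much (4.03%) and 1526 lower (9.35%), which is 13.4% of tested genes together. In 388 of the 657 and 776 of the 1526 the 3 libraries of each group lay within 1.5-fold of each other, a restriction added after the data were seen. The libraries of the groups did not overlap in 32.8% of tested genes with higher values and 33.8% with lower values. The median log2 change of all genes was -0.0052, which the TMM scaling holds near 0, so it does not measure a shift common to all genes.

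Of the 12 named genes that rose most, Lipg, Col18a1 and Emilin2 came first. Lipg, which encodes endothelial lipase, had 20.7, 21.2 and 23.1 CPM after 5-FU, against 0.981, 1.82 and 1.56 CPM in untreated libraries, a log2 change of 3.89 ± 0.15 (SE, adjusted p = 1.39e-09). Col18a1, which encodes a basement membrane collagen, had 31.3, 31.2 and 30.4 CPM after 5-FU, against 2.79, 3.00 and 2.69 CPM in untreated libraries, a log2 change of 3.45 ± 0.10 (SE, adjusted p = 1.36e-10). Emilin2, an extracellular matrix glycoprotein gene, had 191, 215 and 196 CPM after 5-FU, against 31.7, 29.4 and 32.7 CPM in untreated libraries, a log2 change of 2.68 ± 0.069 (SE, adjusted p = 5.13e-11). In each of these genes all libraries after 5-FU stood several-fold above all untreated libraries. The matrix metalloproteinase gene Mmp19 had 23.3, 25.1 and 23.7 CPM after 5-FU, against 3.92, 5.11 and 2.98 CPM in untreated libraries, with a log2 change of 2.59 ± 0.19. Lgals3, which encodes the macrophage lectin galectin-3, had 32.6, 34.7 and 39.5 CPM after 5-FU, against 5.79, 7.61 and 6.55 CPM in untreated libraries, with a log2 change of 2.42 ± 0.14. Noct, a circadian phosphatase gene, had 70.0, 69.3 and 73.7 CPM after 5-FU, against 14.9, 14.6 and 14.2 CPM in untreated libraries, with a log2 change of 2.29 ± 0.12. Further genes of this set were the calcium-activated chloride channel regulator gene Clca3a1 (log2 change 2.39 ± 0.084, and likewise ± SE in parentheses from here on), the leucine-rich glycoprotein gene Lrg1 (2.32 ± 0.13), Slfn2 of the Schlafen family (2.30 ± 0.091) and the iron-siderophore binder gene Lcn2 (2.24 ± 0.052). Gas7, a growth arrest-specific gene, had 21.8, 21.4 and 22.5 CPM after 5-FU, against 1.86, 2.11 and 6.84 CPM in untreated libraries. In Gas7 1 untreated library stood well above the other two, and the groups still did not overlap. Scp2-ps2, with a log2 change of 2.42 ± 0.57, is a pseudogene whose reads may belong to Scp2.

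Of the 12 named genes that fell most, Obsl1, Shisa8 and Arpp21 came first. The cytoskeletal adaptor gene Obsl1 had 1.81, 1.74 and 1.16 CPM after 5-FU, against 24.8, 23.2 and 24.5 CPM in untreated libraries, a log2 change of -3.94 ± 0.15 (SE, adjusted p = 1.38e-09). Shisa8, a membrane protein gene, had 5.20, 5.79 and 5.08 CPM after 5-FU, against 60.4, 62.1 and 60.2 CPM in untreated libraries, a log2 change of -3.50 ± 0.078 (SE, adjusted p = 1.59e-11). Cd69, an early activation antigen of leukocytes, had 169, 168 and 161 CPM after 5-FU, against 1239.5, 1259 and 1243 CPM in untreated libraries, a log2 change of -2.91 ± 0.019 (SE, adjusted p = 3.59e-16). None of these genes had a library after 5-FU within 5-fold of an untreated library. Fos, a subunit of the AP-1 transcription factor, had 771, 773 and 759 CPM after 5-FU, against 5098, 5045 and 5075 CPM in untreated libraries, a log2 change of -2.72 ± 0.014. Gdf15, a stress-induced cytokine of the TGF-beta family, had 8.74, 8.18 and 10.2 CPM after 5-FU, against 66.8, 62.6 and 66.0 CPM in untreated libraries, a log2 change of -2.85 ± 0.074. Mmp2, the gelatinase A gene, had 4.04, 4.20 and 3.70 CPM after 5-FU, against 29.9, 31 and 30.5 CPM in untreated libraries, a log2 change of -2.93 ± 0.11. The remaining genes of this set were Arpp21 (-3.02 ± 0.14), Gimap8 (-2.96 ± 0.081), Ccser1 (-2.90 ± 0.13), the Axl-family ligand gene Gas6 (-2.81 ± 0.10), the zinc finger gene Zfp532 (-2.80 ± 0.17) and the Rab-related gene Sgsm1 (-2.73 ± 0.059).

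**Figure D1:**
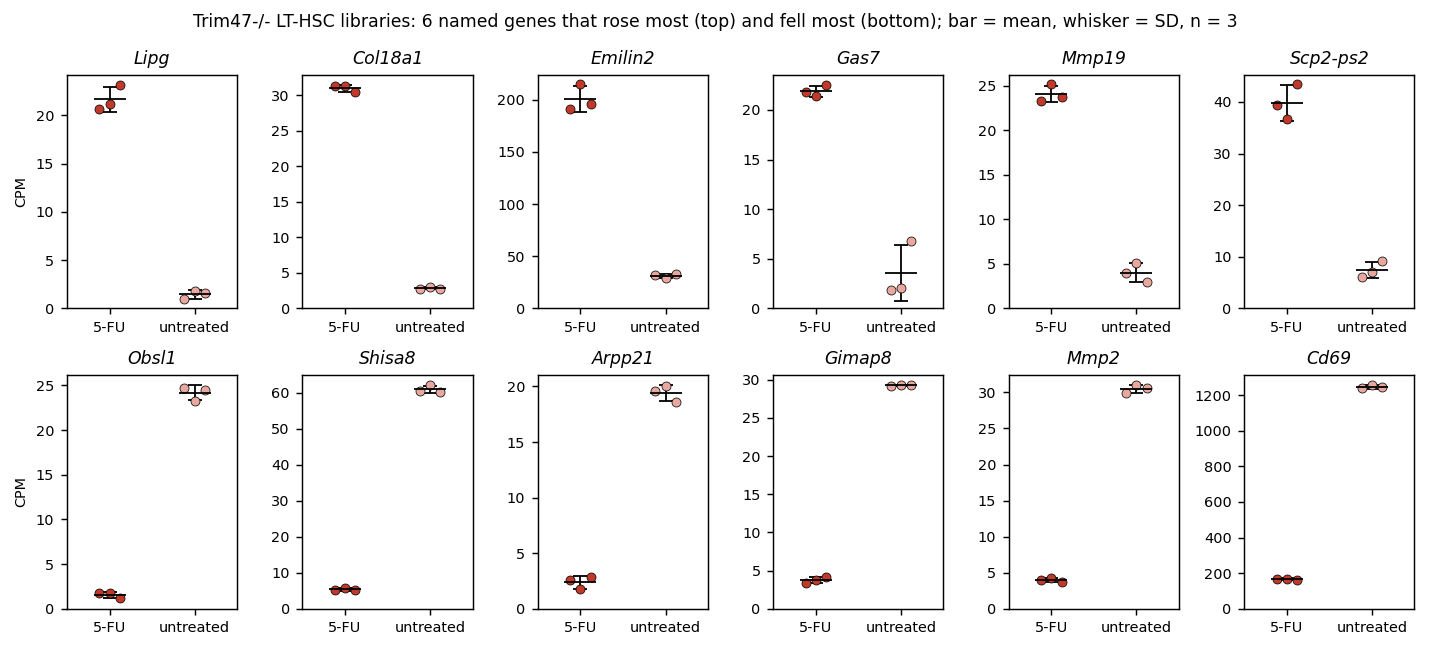
CPM of the 6 named genes with the largest rise (top row) and the 6 with the largest fall (bottom row) in Trim47-/- LT-HSC libraries, 5-FU left and untreated right; points are libraries, bars means and whiskers SD (n = 3). In every panel the points of the groups are apart, and 1 untreated library of Gas7 lies above the other two.

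Genes that mark LT-HSCs were mostly lower after 5-FU. Of 40 tested, 6 rose and 29 fell, 1 and 18 of them by at least 2-fold, and the median log2 change was -0.86. Eya2, a transcriptional coactivator gene expressed in LT-HSCs, had 19.4, 19.8 and 19.2 CPM after 5-FU, against 66.0, 63.1 and 60.3 CPM in untreated libraries, a log2 change of -1.69 ± 0.042 (SE, adjusted p = 4.04e-11). Fgd5, a guanine nucleotide exchange factor gene used as an LT-HSC reporter, had 7.51, 9.20 and 9.86 CPM after 5-FU, against 40.4, 35.5 and 36.9 CPM in untreated libraries, a log2 change of -2.08 ± 0.086 (SE, adjusted p = 3.25e-09). Robo4, a receptor in stem cell homing, had 16.8, 15.1 and 16.2 CPM after 5-FU, against 55.7, 56.6 and 54.0 CPM in untreated libraries, a log2 change of -1.79 ± 0.053 (SE, adjusted p = 1.82e-10). In all of these every library after 5-FU lay below every untreated library. Prdm16 (-1.17 ± 0.062), Hoxa9 (-1.12 ± 0.056), Procr (-0.96 ± 0.062), Erg (-0.84 ± 0.054), Meis1 (-0.83 ± 0.036), Kit (-0.71 ± 0.019) and Mecom (-0.53 ± 0.094) fell as well. Hlf, a transcription factor of stem cell identity, had 63.4, 55.6 and 105 CPM after 5-FU, against 181, 283 and 291 CPM in untreated libraries, a log2 change of -1.75 ± 0.32 (SE, adjusted p = 5.61e-04) with a wide spread inside each group. Members that rose included Vwf (0.72 ± 0.044), which marks platelet-biased stem cells, the CD150 gene Slamf1 (0.99 ± 0.12), Ly6a (1.0 ± 0.29), which encodes the Sca-1 antigen, and the interferon-induced Ifitm1 (0.58 ± 0.023) and Ifitm3 (0.44 ± 0.024). Gata2 (-0.44 ± 0.24), Tek (0.085 ± 0.089), Hoxb5 (-0.11 ± 0.33), Ctnnal1 (0.19 ± 0.11) and Txnip (0.025 ± 0.13) were not called. In bulk libraries such as these, fewer cells of a type and less of an RNA per cell cannot be told apart.

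**Figure D2:**
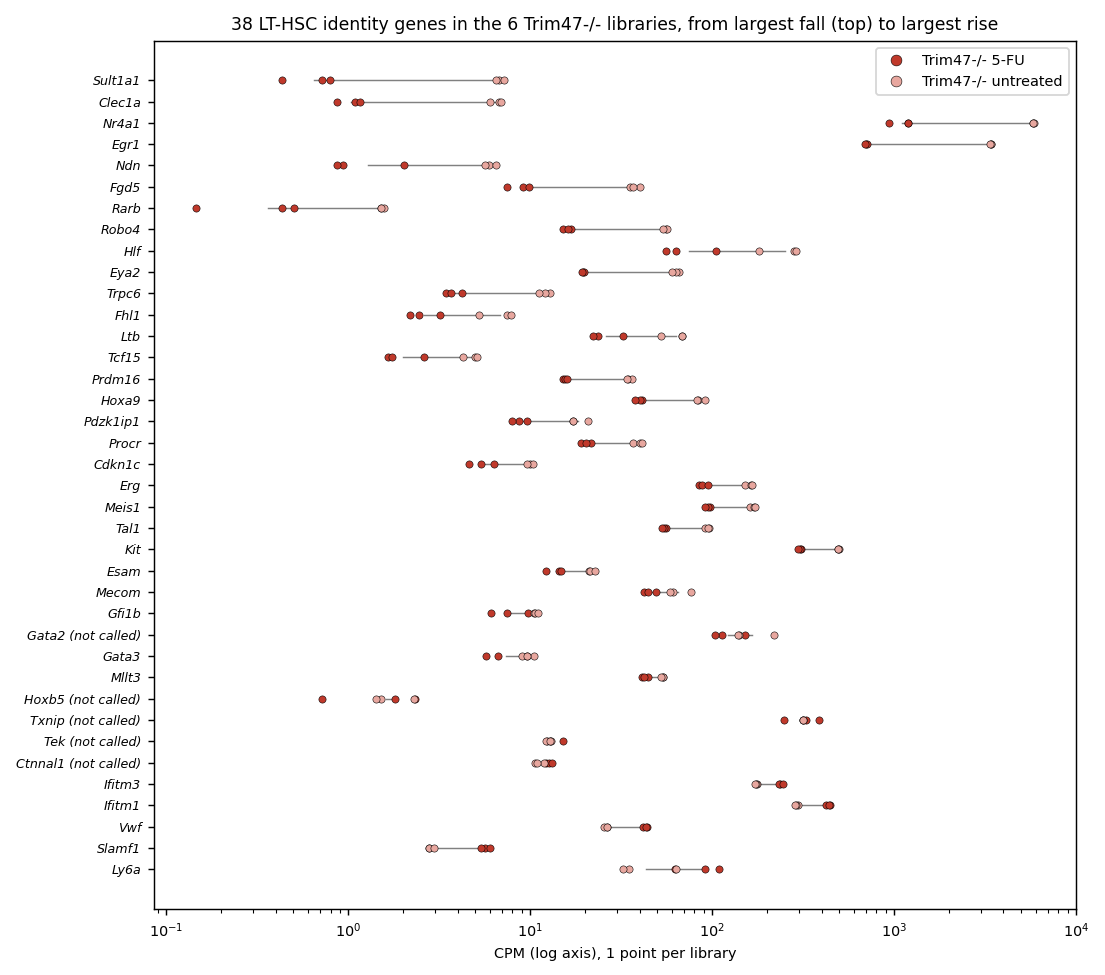
CPM (log axis) of 38 of the 40 LT-HSC identity genes in the 6 Trim47-/- libraries (2 members not reported by name are not shown), 1 point per library, dark for 5-FU and light for untreated, ordered from the largest fall at the top to the largest rise; grey lines join group means. For most genes the dark points lie left of the light ones, and the 5 shown genes that rose stand at the bottom.

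The summed level of the LT-HSC list was 3980 to 4288 CPM after 5-FU and 12200.0 to 12410.0 CPM untreated, of which the immediate early genes Nr4a1 and Egr1 made 26.6% and 16.8% after 5-FU, and 47.4% and 27.6% untreated. Without those, the other 38 members of the whole list, not the set in the plot, summed to 2330.0 to 2388 CPM after 5-FU and 2969 to 3155 CPM untreated, with 6 that rose, 27 that fell and a median log2 change of -0.83.

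GIMAP GTPases, a family of lymphocyte survival proteins encoded side by side on chromosome 6, fell throughout. All 8 tested were lower, 7 of them by at least 2-fold, with a median log2 change of -1.8. Gimap6, the member with the highest counts, had 109, 112 and 109 CPM after 5-FU, against 421, 417 and 416 CPM in untreated libraries, a log2 change of -1.92 ± 0.02 (SE, adjusted p = 1.72e-14). Gimap8, at chr6:48647234-48660875, had 3.32, 3.77 and 4.21 CPM after 5-FU, against 29.2, 29.3 and 29.3 CPM in untreated libraries, and Gimap5 had 9.53, 8.91 and 10.4 CPM after 5-FU, against 30.8, 29.5 and 31.8 CPM in untreated libraries. The libraries of the groups did not overlap in any of these. Gimap9 changed least, by -0.86 ± 0.07.

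Hox genes and their cofactors, which set progenitor identity, fell in 11 of 21 tested and rose in 2, with a median log2 change of -0.28. The falls included Hoxa9 (-1.12 ± 0.056), Hoxa5 (-1.08 ± 0.063), Hoxa3 (-1.36 ± 0.10), Hoxa10 (-0.71 ± 0.076) and Meis1 (-0.83 ± 0.036), and Hoxb3 (-1.26 ± 0.19). Hoxb4 had 7.51, 7.03 and 7.98 CPM after 5-FU, against 7.40, 7.32 and 6.21 CPM in untreated libraries, and was not called. The cofactor gene Pbx3 (0.42 ± 0.10) rose.

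Lymphoid transcripts were mostly lower. Of 24 lymphoid priming and multipotent progenitor genes, 4 rose and 18 fell, 9 of these by 2-fold or more, and the median log2 change was -0.70. Their summed level was 3641 to 3698 CPM after 5-FU and 4700.0 to 4817 CPM untreated. Flt3 had 449, 443 and 445 CPM after 5-FU, against 899, 923 and 923 CPM in untreated libraries, a log2 change of -1.04 ± 0.018 (SE, adjusted p = 1.52e-12). Dntt, which encodes the terminal transferase of early lymphoid cells, had 208, 219 and 214 CPM after 5-FU, against 479, 486 and 483 CPM in untreated libraries, a log2 change of -1.18 ± 0.022 (SE, adjusted p = 3.74e-12). Both genes were lower in every library after 5-FU than in any untreated library. Notch1 (-0.94 ± 0.022), Satb1 (-0.75 ± 0.047) and Ikzf1 (-0.39 ± 0.036) fell too, while Cd48 (0.74 ± 0.043) and Runx3 (0.61 ± 0.026) rose.

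None of 24 tested B and plasma cell genes rose and 19 fell, 18 by at least 2-fold, with a median log2 change of -2.01. Their summed level was 813.6 to 848.6 CPM after 5-FU and 2814 to 2984 CPM untreated. Most of it was immunoglobulin constant regions: Igha, the IgA heavy chain, had 286, 277 and 288 CPM after 5-FU, against 1101, 1108 and 1147 CPM in untreated libraries, a log2 change of -1.98 ± 0.04 (SE, adjusted p = 7.39e-12), and the kappa light chain Igkc had 144, 136 and 142 CPM after 5-FU, against 681, 669 and 664 CPM in untreated libraries, a log2 change of -2.25 ± 0.031 (SE, adjusted p = 2.29e-13). No library after 5-FU came near the untreated ones in either gene. The B cell surface gene Ms4a1 had 0 raw counts in each library after 5-FU and 6 to 7 in the deeper untreated libraries. Of 19 MHC class II and dendritic cell genes, 4 rose and 10 fell, with sums of 1128 to 1158 CPM after 5-FU and 1792 to 1860.0 CPM untreated, of which Flt3, counted above among the progenitor genes, made 39.1% after 5-FU and 50.2% untreated. H2-Aa had 14.4, 11.7 and 14.1 CPM after 5-FU, against 57.0, 60.2 and 61.5 CPM in untreated libraries, a log2 change of -2.16 ± 0.088, and H2-Eb1 changed by -2.17 ± 0.12 and Cd74 by -2.01 ± 0.11. Of 21 T, NK and innate lymphoid genes, 2 rose and 11 fell, while the defining genes Cd3d, Cd3e and Cd3g had at most 8 counts in any Trim47-/- library and the sums were 232.4 to 234.2 CPM after 5-FU and 249.1 to 259.4 CPM untreated. Of 19 mast cell, basophil and eosinophil genes 4 rose and 9 fell, with a median log2 change of -0.67. Their sums were 1366 to 1432 CPM after 5-FU and 1138 to 1359 CPM untreated, and the granule proteoglycan gene Srgn, which other blood cells express too, made 78.4% of them after 5-FU and 66.4% untreated. The part of cells of these lineages in the libraries was not tested.

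Immediate early genes, which growth factors and stress switch on within minutes, were mostly lower. Of 36 tested, 2 rose and 32 fell, 1 and 23 by at least 2-fold, and the median log2 change was -1.15. Zfp36, which encodes an mRNA decay factor, had 667, 664 and 671 CPM after 5-FU, against 3806, 3830.4 and 3833 CPM in untreated libraries, a log2 change of -2.52 ± 0.01 (SE, adjusted p = 9.63e-18). Jun, an AP-1 subunit, had 2026, 2019.6 and 2030.0 CPM after 5-FU, against 6654, 6657 and 6606 CPM in untreated libraries, a log2 change of -1.71 ± 0.0082 (SE, adjusted p = 2.19e-17). Egr1, a zinc finger factor that restrains stem cell division, had 700.2, 707 and 696 CPM after 5-FU, against 3417, 3409 and 3385 CPM in untreated libraries, a log2 change of -2.28 ± 0.012 (SE, adjusted p = 2.77e-17). In all of them the spread inside a group was small against the difference. Dusp1, a MAP kinase phosphatase gene, had 235, 236 and 233 CPM after 5-FU, against 1428, 1401 and 1468 CPM in untreated libraries, a log2 change of -2.61 ± 0.023, and Dusp2 (-2.36 ± 0.022), Btg2 (-2.30 ± 0.023), Ier3 (-1.96 ± 0.022), Klf2 (-1.60 ± 0.015) and Fosb (-1.35 ± 0.034) fell with it. Nr4a1, a nuclear receptor of stem cell quiescence, had 934, 1193 and 1196 CPM after 5-FU, against 5812, 5892 and 5825 CPM in untreated libraries, a log2 change of -2.40 ± 0.075. The members that rose were the AP-1 subunit gene Fosl1, with 52.4, 55.1 and 55.8 CPM after 5-FU, against 24.6, 25.2 and 24.1 CPM in untreated libraries and a log2 change of 1.14 ± 0.055 (SE, adjusted p = 1.07e-08), and Dusp4 (0.68 ± 0.05).

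The cAMP response element, TGACGTCA on either strand, occurred in the 250 bases before the start of 3 of 29 immediate early genes with a promoter entry (10.3%), and in 2.7% of 10589 promoters of tested genes. These were Dusp1, Btg2 and Ppp1r15a, all of which fell, as did 32 of the 36 tested members of the list (88.9%). The Dusp1 promoter is shown as an example, from RefSeq on GRCm38.p6, minus strand, chr17:26508473-26508722, read 5′ to 3′ towards the gene. Capitals mark the element, 143 to 136 bases before the start, which overlapped no match to another motif searched.
Dusp1: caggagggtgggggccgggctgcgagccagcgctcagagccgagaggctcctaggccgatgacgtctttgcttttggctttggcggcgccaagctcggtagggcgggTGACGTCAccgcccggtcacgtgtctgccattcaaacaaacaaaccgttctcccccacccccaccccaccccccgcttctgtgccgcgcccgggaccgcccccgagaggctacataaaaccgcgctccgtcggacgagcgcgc
A serum response element (CArG box) was found in 2 of the 29 (6.90%, against 1.11% of tested promoters), and an AP-1 site, TGANTCA, in 1 (3.45%, against 4.42%). An NF-kB site was the most frequent of the motifs searched in these promoters, in 5 of the 29 (17.2%, against 8.62%). The 5 were Fos, Fosb, Fosl2, Ier3 and Nfkbia, all of which fell, as most of the list did. A match is a description of the letters and not evidence of binding.

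Genes that hold cells out of the cycle were mostly lower. Of 28 CDK inhibitors and quiescence regulators tested, 5 rose and 20 fell, 0 and 6 by 2-fold or more, with a median log2 change of -0.64. The 5 that rose were 2 without replicate 2 of the untreated group or of the 5-FU group, and 3 without replicate 1 of the 5-FU group. The list shares 5 members with the immediate early list and 3 with the LT-HSC list, and its counts were not recomputed without them. Hes1, a Notch target that restrains division, had 30.8, 38 and 37.0 CPM after 5-FU, against 225, 228 and 214 CPM in untreated libraries, a log2 change of -2.66 ± 0.093 (SE, adjusted p = 8.03e-10). Cdkn1c, the p57 inhibitor that holds LT-HSCs in G0, had 5.34, 6.30 and 4.64 CPM after 5-FU, against 10.1, 10.4 and 9.58 CPM in untreated libraries, a log2 change of -0.88 ± 0.10 (SE, adjusted p = 1.13e-05). Foxo3, a transcription factor of quiescence, had 147, 154 and 152 CPM after 5-FU, against 246, 249 and 246 CPM in untreated libraries, a log2 change of -0.71 ± 0.032 (SE, adjusted p = 6.37e-09). All libraries after 5-FU were lower in these genes. Cdkn1a, the p21 inhibitor, had 256, 148 and 188 CPM after 5-FU, against 254, 309 and 341 CPM in untreated libraries, groups that overlap, and a log2 change of -0.61 ± 0.23 (SE, adjusted p = 0.0365). Cdkn1b, the p27 inhibitor, had 84.9, 89.5 and 48.9 CPM after 5-FU, against 74.4, 125 and 73.1 CPM in untreated libraries and was not called. Tgfb1, a cytokine that keeps stem cells at rest, rose, with 453, 473 and 473 CPM after 5-FU, against 332, 332 and 331 CPM in untreated libraries and a log2 change of 0.49 ± 0.021.

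Of 54 genes of G1/S and DNA replication, 20 rose (37%) and 17 fell (31.5%), against 29.6% and 30.8% of all tested genes. The median log2 change was -0.01, and 1 gene reached 2-fold. That gene was cyclin E1, Ccne1, with 25.6, 24.8 and 23.1 CPM after 5-FU, against 11.5, 10.2 and 10.1 CPM in untreated libraries and a log2 change of 1.21 ± 0.076 (SE, adjusted p = 9.32e-08). Cyclin D1, Ccnd1, had 82.2, 88.7 and 79.8 CPM after 5-FU, against 42.5, 42.4 and 47.1 CPM in untreated libraries, a log2 change of 0.93 ± 0.059, and its kinase Cdk6 changed by 0.52 ± 0.013. Cyclin D2, Ccnd2, fell, with a log2 change of -0.55 ± 0.027. Replication genes moved little: Mcm5 by 0.19 ± 0.019, Mcm2 by -0.12 ± 0.019 and Pcna by -0.18 ± 0.022. Of 47 G2/M and mitosis genes 22 rose and 14 fell, with none at 2-fold and a median of 0.09. Ccnb2 (0.50 ± 0.035) and Birc5 (0.48 ± 0.036) rose, Plk1 (-0.26 ± 0.046) and Hmmr (-0.28 ± 0.036) fell, and the proliferation marker Mki67 changed by 0.14 ± 0.015.

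Genes induced by p53, the factor that DNA damage activates, did not move together: of 33 tested, 9 rose and 16 fell, with a median log2 change of -0.19. Pmaip1, the proapoptotic Noxa gene, had 112, 116 and 111 CPM after 5-FU, against 25.2, 24.7 and 25.0 CPM in untreated libraries, a log2 change of 2.17 ± 0.039 (SE, adjusted p = 2.39e-12). Mdm2, which encodes the ligase that degrades p53, had 185, 191 and 182 CPM after 5-FU, against 109, 114 and 110.3 CPM in untreated libraries, a log2 change of 0.75 ± 0.03 (SE, adjusted p = 2.57e-09). Plk2, a p53-induced kinase gene, had 65.3, 60.7 and 63.3 CPM after 5-FU, against 194, 195 and 185 CPM in untreated libraries, a log2 change of -1.60 ± 0.034 (SE, adjusted p = 1.31e-11). The groups did not overlap in any of these. The DNA repair target Ddb2 (-0.85 ± 0.072), Sesn1 (-0.61 ± 0.028), Trp53inp1 (-0.83 ± 0.046) and Gdf15, given above, fell. In the BCL2 family 6 of 15 rose and 2 fell. The effector genes Bak1 (0.69 ± 0.039) and Bax (0.53 ± 0.092) and the initiator Bbc3 (0.30 ± 0.03) rose beside Pmaip1, and the survival genes Mcl1 (-0.33 ± 0.015) and Bcl2 (-0.26 ± 0.055) fell.

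Of 30 genes listed as targets or in the metabolism of fluoropyrimidines, the class of drugs that holds 5-FU, 12 were higher (40%) and 10 lower (33.3%). Over all tested genes the shares were 29.6% and 30.8%, and 1 gene of the list reached 2-fold. Without replicate 2 of the 5-FU group 6 were lower. Uck2, which activates uridine analogues by phosphorylation, had 457, 448 and 443 CPM after 5-FU, against 313, 292 and 288 CPM in untreated libraries, a log2 change of 0.59 ± 0.044 (SE, adjusted p = 4.04e-07). Tyms, the thymidylate synthase that 5-FU inhibits, had 52.0, 47.5 and 48.8 CPM after 5-FU, against 46.2, 42.4 and 43.2 CPM in untreated libraries, a log2 change of 0.17 ± 0.062 (SE, adjusted p = 0.0333). Abcg2, the efflux pump of the side population of stem cells, had 25.0, 25.4 and 25.0 CPM after 5-FU, against 40.9, 39.5 and 42.6 CPM in untreated libraries, a log2 change of -0.71 ± 0.054 (SE, adjusted p = 5.14e-07). The Tyms difference was small and its groups lay close together, while those of Uck2 and Abcg2 were well apart. Of 42 DNA damage signalling and repair genes 8 rose and 21 fell, with a median of -0.21. The scaffold gene Mdc1 (-0.73 ± 0.027) was among those that fell and the end-resection gene Rbbp8 (0.56 ± 0.046) among those that rose.

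Myeloid genes were mostly higher. Of 27 neutrophil genes tested, 21 rose and 3 fell, 14 and 1 by at least 2-fold, and the median log2 change was 1.03. Ctsg, a granule protease gene, had 723, 719 and 717 CPM after 5-FU, against 238, 223 and 226 CPM in untreated libraries, a log2 change of 1.65 ± 0.026 (SE, adjusted p = 7.25e-13). Ngp, a secondary granule gene, had 366, 364 and 378 CPM after 5-FU, against 127, 124 and 123 CPM in untreated libraries, a log2 change of 1.57 ± 0.025 (SE, adjusted p = 7.80e-13). S100a8, which encodes a subunit of calprotectin, had 289.6, 288 and 285 CPM after 5-FU, against 128, 127 and 127 CPM in untreated libraries, a log2 change of 1.18 ± 0.02 (SE, adjusted p = 2.00e-12). In each, every library after 5-FU lay above every untreated library. The primary granule genes Mpo (0.92 ± 0.044), Elane (0.69 ± 0.027) and Prtn3 (1.03 ± 0.026) rose, and so did the late granule gene Ltf (2.06 ± 0.052). Prss34 (-1.94 ± 0.053), a basophil and mast cell protease gene placed in this list, and Csf3r (-0.30 ± 0.021) fell. Summed over the list, the level was 7767 to 8157 CPM after 5-FU and 4136 to 4219 CPM untreated, and Mpo made 41.2% of it after 5-FU and 41.5% untreated. Ly6g, the surface marker of mature neutrophils, had 7 to 10 raw counts per library after 5-FU and 11 to 19 untreated. These counts are not scaled for the larger totals of the untreated libraries, so they do not show a fall.

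Of 26 monocyte and macrophage genes, 16 rose and 5 fell, 11 and 2 by 2-fold or more, with a median of 0.64. F13a1, a coagulation factor gene of monocytes, had 288, 299 and 305 CPM after 5-FU, against 87.6, 85.5 and 83.0 CPM in untreated libraries, a log2 change of 1.8 ± 0.033 (SE, adjusted p = 3.63e-12). Ccl9, a chemokine gene, had 293, 305 and 308 CPM after 5-FU, against 87.0, 80.4 and 85.6 CPM in untreated libraries, a log2 change of 1.84 ± 0.037 (SE, adjusted p = 7.38e-12). Csf1r, the macrophage growth factor receptor, had 137, 130.2 and 138 CPM after 5-FU, against 58.0, 58.0 and 52.8 CPM in untreated libraries, a log2 change of 1.26 ± 0.044 (SE, adjusted p = 7.31e-10). No library of the treated group overlapped an untreated library in these. Ms4a6c (1.88 ± 0.04) and the inflammatory monocyte receptor gene Ccr2 (2.08 ± 0.13) rose too, Klf4 (-0.98 ± 0.032) fell, and Irf8 (0.13 ± 0.20) and Cd68 (0.10 ± 0.057) were not called. The summed level was 2204 to 2240.0 CPM after 5-FU and 1680.0 to 1819 CPM untreated, and Klf4 made 19.9% of it after 5-FU and 49.9% untreated. The macrophage complement genes C1qb and C1qc had 4 to 6 raw counts per library after 5-FU and 6 to 15 untreated, again not scaled for the larger untreated totals.

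Inflammasome and activated myeloid genes showed the highest median of the lists described, 1.23: 24 of 29 rose and 3 fell, 17 and 2 by at least 2-fold. Tlr2, a receptor for bacterial lipoproteins, had 79.7, 80.6 and 75.3 CPM after 5-FU, against 21.2, 20.9 and 21.3 CPM in untreated libraries, a log2 change of 1.89 ± 0.046 (SE, adjusted p = 3.14e-11). Nlrp3, the sensor of the inflammasome, had 129.9, 103 and 131 CPM after 5-FU, against 52.5, 48.6 and 45.7 CPM in untreated libraries, a log2 change of 1.31 ± 0.093 (SE, adjusted p = 2.59e-07). Acod1, which encodes the itaconate-producing enzyme of activated macrophages, had 20.9, 17.9 and 18.8 CPM after 5-FU, against 8.14, 6.68 and 7.18 CPM in untreated libraries, a log2 change of 1.39 ± 0.10 (SE, adjusted p = 4.54e-07). All libraries after 5-FU were higher than all untreated libraries in the 3 genes. Trem1 (1.52 ± 0.04), Cd14 (1.82 ± 0.12), Clec4e (1.60 ± 0.10), the adaptor gene Pycard (0.58 ± 0.047) and the protease gene Casp1 (0.31 ± 0.058) rose as well. The effector cytokine genes went the other way: Il1b had 4.26, 3.55 and 4.28 CPM after 5-FU, against 7.5, 7.66 and 6.79 CPM in untreated libraries, a log2 change of -0.86 ± 0.13, and Il18 changed by -1.74 ± 0.11. Ptgs2, the inducible prostaglandin synthase gene, fell with a log2 change of -1.66 ± 0.028, and the pore-forming Gsdmd had 69.8, 67.5 and 69.8 CPM after 5-FU, against 70.9, 70.1 and 71.3 CPM in untreated libraries and was not called. This list shares members with the neutrophil and monocyte lists, whose summed levels are given above, and the part of more mature myeloid cells was not tested.

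NF-kB targets were split: of 40 tested, 13 rose and 18 fell, 2 and 9 by 2-fold or more, with a median of -0.12. Cxcl2, a neutrophil chemokine gene, had 54.1, 55.6 and 55.0 CPM after 5-FU, against 235, 227 and 235 CPM in untreated libraries, a log2 change of -2.08 ± 0.033 (SE, adjusted p = 7.80e-13). Rel, which encodes an NF-kB subunit, had 459, 472 and 457 CPM after 5-FU, against 332, 326 and 327 CPM in untreated libraries, a log2 change of 0.50 ± 0.022 (SE, adjusted p = 5.72e-09). Ccl3 (-2.09 ± 0.046), Ccl4 (-1.57 ± 0.047), Cd83 (-1.57 ± 0.033), Tnf (-0.80 ± 0.03) and the inhibitor gene Nfkbia (-0.49 ± 0.018) fell, while Relb (0.64 ± 0.05), Nfkbib (0.62 ± 0.046), Csf1 (0.86 ± 0.061) and Nfkb2 (0.23 ± 0.021) rose. Tnfaip3, the A20 deubiquitinase gene, had 298, 609 and 303 CPM after 5-FU, against 2161, 1074 and 1939.9 CPM in untreated libraries, a log2 change of -2.10 ± 0.38 (SE, adjusted p = 4.96e-04) with libraries that differed by over 2-fold inside each group.

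An NF-kB site, matched by its consensus on either strand, stood in the 250 bases before 16 of 31 NF-kB target genes with an entry (51.6%), and in 8.62% of the promoters of tested genes. Of the 16, 7 rose, 6 fell and 3 were not called. A promoter of each direction is shown, Cxcl2 (plus strand, chr5:90903649-90903898) and Rel (minus strand, chr11:23770970-23771219), from RefSeq on GRCm38.p6, with the overlapping pair of matches to this motif in capitals.
Cxcl2: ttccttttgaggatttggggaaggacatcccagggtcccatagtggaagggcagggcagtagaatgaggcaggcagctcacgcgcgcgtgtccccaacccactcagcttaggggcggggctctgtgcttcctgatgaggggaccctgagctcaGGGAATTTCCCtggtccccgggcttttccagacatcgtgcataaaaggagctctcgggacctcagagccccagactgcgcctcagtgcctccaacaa
Rel: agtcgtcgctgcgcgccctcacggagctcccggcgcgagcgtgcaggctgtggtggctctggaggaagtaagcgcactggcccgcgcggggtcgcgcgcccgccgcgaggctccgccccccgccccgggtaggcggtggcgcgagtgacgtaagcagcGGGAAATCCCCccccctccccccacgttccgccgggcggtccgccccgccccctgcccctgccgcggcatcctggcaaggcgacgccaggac
The capitals span 97 to 87 bases before the start in Cxcl2, which fell, and 92 to 82 bases before the start in Rel, which rose, so a match close to the start stood in genes of either direction. An AP-1 site stood in 6 of the 31 (19.4%, against 4.42%), of which 1 rose, 1 fell and 4 were not called.

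Type I interferon response genes were also split, with 27 of 67 higher (40.3%), 20 lower (29.9%) and a median near 0 (-0.001). Over all tested genes the shares were 29.6% and 30.8%. Irf7, the factor that amplifies the response, had 52.5, 51.1 and 46.5 CPM after 5-FU, against 25.2, 27.4 and 24.2 CPM in untreated libraries, a log2 change of 0.97 ± 0.059 (SE, adjusted p = 7.66e-08). Mx1 (1.12 ± 0.11), Oas1a (0.91 ± 0.058), Oasl1 (1.38 ± 0.16), Bst2 (0.78 ± 0.044) and Isg15 (0.57 ± 0.10) rose, Iigp1 (-1.58 ± 0.074) and Irf1 (-0.89 ± 0.046) fell, and Ifit1 (-0.11 ± 0.11) was not called. Slfn2, given above, had the largest change of the list.

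Genes of the unfolded protein response, which raises the folding capacity of the endoplasmic reticulum, were mostly higher. Of 32 genes tested, 22 rose and 5 fell, 1 each by 2-fold, with a median of 0.34. P4hb, a protein disulfide isomerase gene, had 896, 893 and 885 CPM after 5-FU, against 563, 555 and 555 CPM in untreated libraries, a log2 change of 0.68 ± 0.015 (SE, adjusted p = 1.31e-11). Hyou1, an ER chaperone gene, had 281, 270.5 and 275 CPM after 5-FU, against 184, 179.9 and 183 CPM in untreated libraries, a log2 change of 0.60 ± 0.023 (SE, adjusted p = 1.95e-09). Sdf2l1, an ER cochaperone gene, had 109.9, 109 and 109 CPM after 5-FU, against 54.4, 50.7 and 48.7 CPM in untreated libraries, a log2 change of 1.09 ± 0.05 (SE, adjusted p = 7.08e-09). The libraries were tight and the groups apart in each. Pdia6 (0.74 ± 0.038), Pdia4 (0.68 ± 0.029), Edem1 (0.96 ± 0.047), Calr (0.49 ± 0.022), Hsp90b1 (0.30 ± 0.038) and the transcription factor Xbp1 (0.35 ± 0.048) also rose. The 5 that fell were Hspa5, which encodes the chaperone BiP, with 1174, 1131 and 1199.6 CPM after 5-FU, against 1879.5, 1865 and 1832 CPM in untreated libraries and a log2 change of -0.67 ± 0.019 (SE, adjusted p = 1.34e-10), the proapoptotic CHOP gene Ddit3 (-1.18 ± 0.047), Dnajb9 (-0.87 ± 0.032), Trib3 (-0.64 ± 0.14) and Herpud1 (-0.52 ± 0.056). Atf4 had 494, 505 and 502 CPM after 5-FU, against 489, 481 and 481 CPM in untreated libraries and was not called.

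The ER stress response element, matched by its consensus on either strand, stood in 8 of 26 promoters of this list (30.8%) and in 17 of 10589 promoters of tested genes (0.161%). Of the 8, 6 rose (Calr, Hsp90b1, Canx, Pdia6, Dnajc3 and Creld2), Hspa5 fell and Syvn1 was not called. The promoters of Hspa5 (plus strand, chr2:34771840-34772089), Hsp90b1 (minus strand, chr10:86705445-86705694) and Pdia6 (plus strand, chr12:17266339-17266588) are shown because the genes carry the same element and moved in opposite directions. They are from RefSeq on GRCm38.p6, and capitals mark the element.
Hspa5: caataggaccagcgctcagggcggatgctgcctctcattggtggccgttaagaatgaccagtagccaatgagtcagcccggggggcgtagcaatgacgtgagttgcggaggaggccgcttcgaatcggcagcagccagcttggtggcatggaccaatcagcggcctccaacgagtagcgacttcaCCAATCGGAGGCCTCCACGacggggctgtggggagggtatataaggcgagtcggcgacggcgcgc
Hsp90b1: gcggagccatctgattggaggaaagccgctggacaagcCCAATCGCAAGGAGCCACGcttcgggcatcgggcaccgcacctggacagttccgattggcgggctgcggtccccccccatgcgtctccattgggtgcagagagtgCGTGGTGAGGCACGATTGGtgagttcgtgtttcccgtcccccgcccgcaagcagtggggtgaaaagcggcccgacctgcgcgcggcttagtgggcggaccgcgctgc
Pdia6: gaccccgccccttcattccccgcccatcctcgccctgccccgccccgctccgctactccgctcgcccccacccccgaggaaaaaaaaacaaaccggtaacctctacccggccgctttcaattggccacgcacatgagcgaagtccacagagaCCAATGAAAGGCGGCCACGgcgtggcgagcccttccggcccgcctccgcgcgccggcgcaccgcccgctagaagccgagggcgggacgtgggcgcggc
The element lay 65 to 47 bases before the start in Hspa5, 98 to 80 in Pdia6, and at 2 places in Hsp90b1, 212 to 194 and 107 to 89. None of them overlapped a match to another motif searched. An AP-1 site, TGANTCA, stood in 4 of the 26 promoters (15.4%, against 4.42% of tested promoters), of which Hspa5 and Ddit3 fell and Eif2ak3 and Sel1l were not called. The Hspa5 promoter above holds this match outside the capitals, and those of Hsp90b1 and Pdia6 do not. Whether the match has a part in the direction of change was not tested.

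Of 29 genes of the integrated stress response, 19 rose and 4 fell, 3 and 2 by at least 2-fold, with a median of 0.33. Ppp1r15a (-1.02 ± 0.15) and Ddit3, given above, were among those that fell. The amino acid transporter gene Slc7a5 had 256, 258 and 250.4 CPM after 5-FU, against 134, 139 and 133 CPM in untreated libraries, a log2 change of 0.91 ± 0.026 (SE, adjusted p = 1.53e-10). Of 22 heat shock chaperones 11 rose and 5 fell: the cochaperone gene Bag3 (1.34 ± 0.048) and the mitochondrial Hspd1 (0.43 ± 0.021) rose and the inducible heat shock gene Hspa1b (-1.25 ± 0.038) fell.

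Genes of respiration, glycolysis and ribosome assembly were mostly higher by less than 2-fold. Of 76 nuclear genes of oxidative phosphorylation, 69 rose and none fell, none reached 2-fold, and the log2 changes ran over 0.03 to 0.78 with a median of 0.44. Atp5b, a subunit of ATP synthase, had 1154, 1152 and 1157 CPM after 5-FU, against 822, 819.9 and 823 CPM in untreated libraries, a log2 change of 0.49 ± 0.021 (SE, adjusted p = 3.52e-09). Ndufb7 of complex I changed by 0.72 ± 0.041 and Cox6a1 of complex IV by 0.54 ± 0.031. The 13 mitochondrially encoded genes did not share this: 2 rose and 5 fell, the log2 changes lay between -0.17 and 0.06, and mt-Cytb changed by -0.16 ± 0.011. Of these, 1 rose without replicate 1 of the untreated group or replicate 2 of the 5-FU group, 0 rose without replicate 2 of the untreated group, and 3 fell without replicate 3 of the 5-FU group. Mitochondrial mRNA took 2.60% to 2.66% of counts after 5-FU and 2.67% to 2.70% untreated. Of 27 glycolysis genes 16 rose and 6 fell, with a median of 0.30. Ldha, which makes lactate, had 483, 454 and 478 CPM after 5-FU, against 284, 286 and 283 CPM in untreated libraries, a log2 change of 0.73 ± 0.026 (SE, adjusted p = 1.03e-09), and Eno1 (0.85 ± 0.037) and Pgk1 (0.56 ± 0.026) rose while the glucose transporter gene Slc2a3 (-0.87 ± 0.022) and Pdk1 (-0.32 ± 0.028) fell. Of 40 genes of ribosome biogenesis and MYC targets 26 rose and 6 fell, with a median of 0.27. The snoRNP gene Nhp2 changed by 0.70 ± 0.027, Wdr43 by 0.49 ± 0.02 and the MYC paralogue Mycn by -1.06 ± 0.051. Among 79 cytosolic ribosomal protein genes, which share reads with their pseudogenes, 34 rose and 8 fell, with a median of 0.10, and 5 fell without replicate 2 of the untreated group or replicate 3 of the 5-FU group. Of 24 cholesterol synthesis genes 12 rose and 6 fell, where 2 fell without replicate 1 of the untreated group and 3 without replicate 2 or 3 of that group or replicate 1 or 2 of the 5-FU group. Of 31 antioxidant genes 17 rose and 5 fell. Fdps (1.23 ± 0.056), a prenyl diphosphate synthase, and Gsr (0.43 ± 0.023), the glutathione reductase, were among those that rose. Stard4 (-0.31 ± 0.036) of the cholesterol list, and Prdx6 (-0.64 ± 0.033) and Nqo1 (-0.73 ± 0.085) of the antioxidant list, were among those that fell.

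Erythroid genes rose in 21 of 31 tested and fell in 3, 8 and 1 by at least 2-fold, with a median of 0.63. Gata1, the erythroid and megakaryocyte master factor, had 11.3, 12.3 and 13 CPM after 5-FU, against 4.95, 4.67 and 5.18 CPM in untreated libraries, a log2 change of 1.31 ± 0.14 (SE, adjusted p = 8.12e-06). Hba-a1, an alpha globin gene with a near-identical copy, had 150.4, 154 and 149 CPM after 5-FU, against 57.2, 56.9 and 59.8 CPM in untreated libraries, a log2 change of 1.38 ± 0.033 (SE, adjusted p = 3.14e-11). Tfrc, the transferrin receptor, had 239.7, 238 and 241 CPM after 5-FU, against 174, 174 and 173 CPM in untreated libraries, a log2 change of 0.46 ± 0.02. Each was higher in every library after 5-FU. Car2 (-1.03 ± 0.042), Hemgn (-0.82 ± 0.082) and Car1 (-0.59 ± 0.078) fell, and Klf1 (-0.21 ± 0.17) was not called. The summed level was 1273 to 1284 CPM after 5-FU and 1009 to 1019 CPM untreated.

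Of 29 megakaryocyte and platelet genes 15 rose and 7 fell, with a median of 0.52, which was 0.32 with only the 6 Trim47-/- libraries in the fit and 0.25 without replicate 2 of the 5-FU group. Selp, which encodes P-selectin, had 94.3, 89.3 and 93.2 CPM after 5-FU, against 24.1, 24.1 and 21.8 CPM in untreated libraries, a log2 change of 1.98 ± 0.044 (SE, adjusted p = 1.49e-11), and the integrin genes Itga2b (1.22 ± 0.034) and Itgb3 (0.99 ± 0.053) rose with it. Mmrn1, a platelet granule gene, had 11, 11.2 and 12.4 CPM after 5-FU, against 64.7, 61.5 and 60.5 CPM in untreated libraries, a log2 change of -2.43 ± 0.064 (SE, adjusted p = 6.68e-11). The summed level was 1763 to 1784 CPM after 5-FU and 1498 to 1526 CPM untreated. Plek made 31.9% of it after 5-FU and 32.1% untreated, and Rap1b made 25.7% after 5-FU and 20.5% untreated.

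Receptors for cytokines and niche signals moved both ways, with 19 of 43 higher (44.2%) and 15 lower (34.9%), against 29.6% and 30.8% of all tested genes. Itga5, the fibronectin receptor subunit, had 156, 152 and 155 CPM after 5-FU, against 50.4, 49.2 and 49.3 CPM in untreated libraries, a log2 change of 1.64 ± 0.032 (SE, adjusted p = 5.46e-12). The shared beta chain genes Csf2rb (1.24 ± 0.16) and Csf2rb2 (1.62 ± 0.055), near-identical copies, rose beside Csf1r, and Cxcr4, the receptor that keeps stem cells in the marrow, had 157, 153 and 160.3 CPM after 5-FU, against 301, 296 and 294 CPM in untreated libraries, a log2 change of -0.92 ± 0.022 (SE, adjusted p = 2.55e-11). Of 24 genes of TGF-beta reception 5 rose and 12 fell: the receptor genes Tgfbr1 (1.17 ± 0.042) and Tgfbr3 (1.19 ± 0.054) rose, and the inhibitor gene Smad7, with 202, 96.1 and 192 CPM after 5-FU, against 444, 449 and 445 CPM in untreated libraries, and Smad3 (-0.71 ± 0.039) fell. Of 39 matrix and secreted factors 24 rose and 10 fell, 12 and 5 by 2-fold. Lgals1, galectin-1, had 216, 241 and 243 CPM after 5-FU, against 59.2, 57.3 and 57.3 CPM in untreated libraries, a log2 change of 2.01 ± 0.043 (SE, adjusted p = 1.24e-11), and Anxa2 (1.24 ± 0.035) and S100a6 (1.68 ± 0.085) rose with it. Angpt1, a ligand by which stem cells act on the vascular niche, had 127, 133 and 132 CPM after 5-FU, against 353, 346 and 349 CPM in untreated libraries, a log2 change of -1.42 ± 0.025 (SE, adjusted p = 2.04e-12), and Vegfa changed by -0.92 ± 0.036. Of 21 endothelial and stromal genes 6 rose and 10 fell, with sums of 406.2 to 417.6 CPM after 5-FU and 553.1 to 555.6 CPM untreated, and the stromal genes Pdgfra, Lepr, Adipoq and Col3a1 had at most 10 counts in any Trim47-/- library. Among 31 lineage-deciding transcription factors 6 rose and 17 fell, with Spi1 (0.49 ± 0.038) and Cebpa (0.32 ± 0.062) of the myeloid lineage among the first and Bcl11a (-1.34 ± 0.032) and Ets1 (-1.33 ± 0.081) of lymphoid cells among the others.

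**Figure D3:**
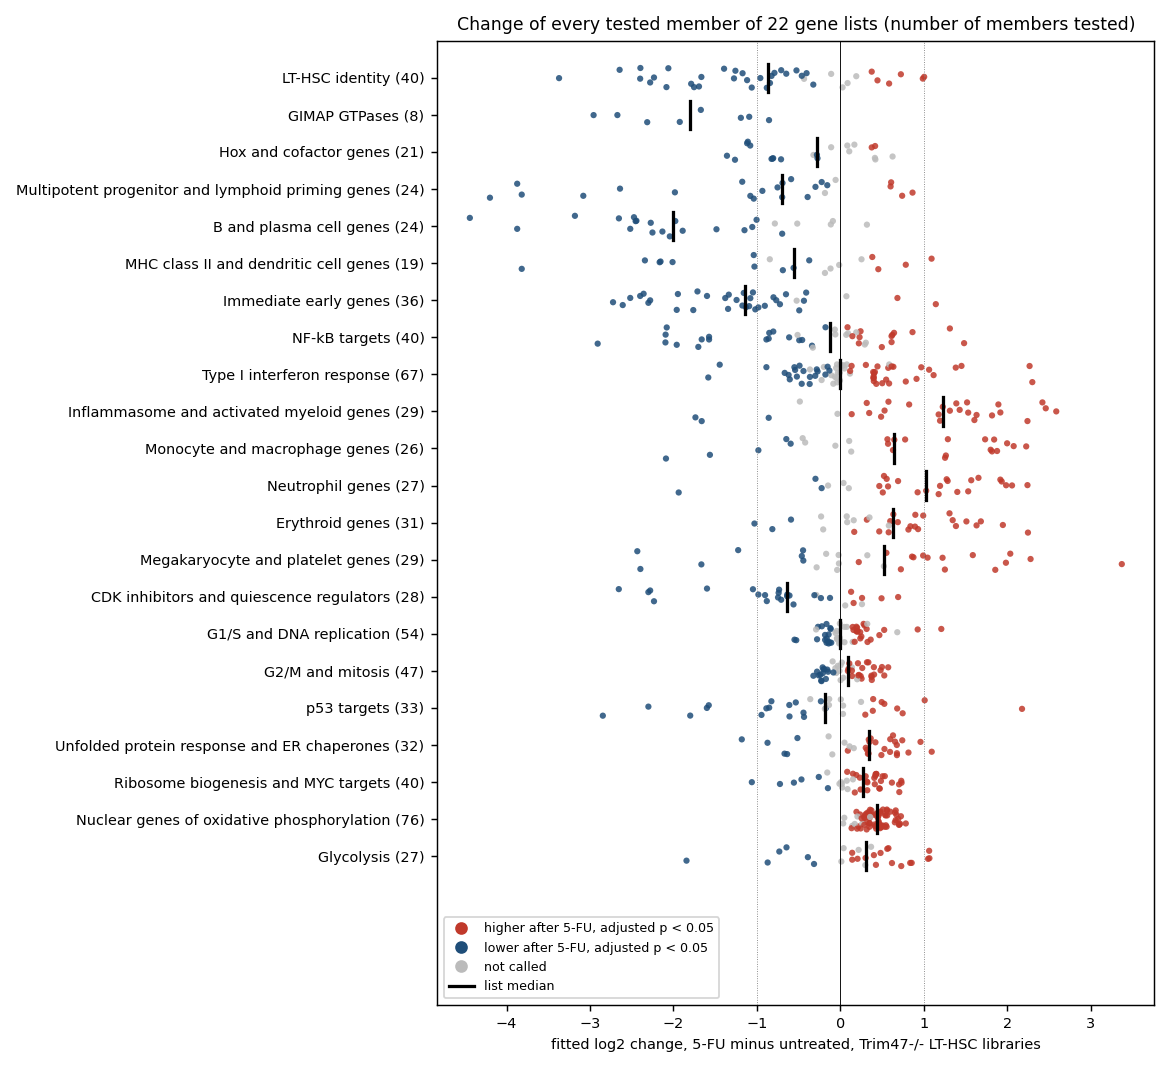
Fitted log2 change (5-FU minus untreated, Trim47-/-) of every tested member of 22 gene lists; red and blue points were called higher and lower at an adjusted p under 0.05, grey points were not, black bars are list medians and dotted lines mark 2-fold. The lists run over medians of -2.01 for B and plasma cell genes and 1.23 for inflammasome and activated myeloid genes, and the oxidative phosphorylation genes all lie right of 0.

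**Figure D4:**
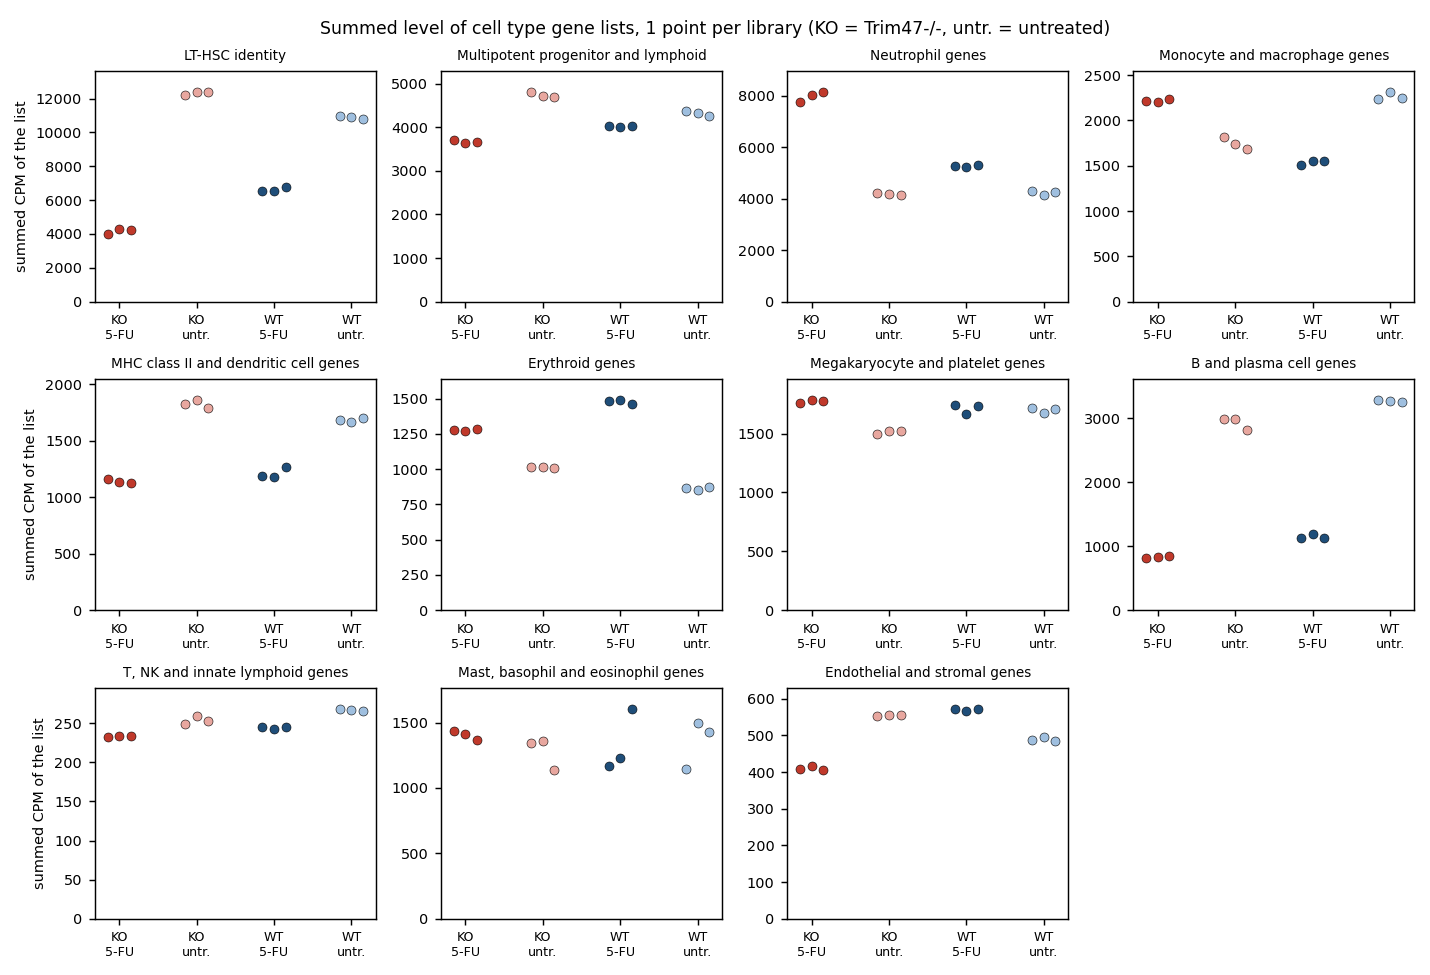
Summed CPM of 11 cell type gene lists, 1 point per library, in Trim47-/- after 5-FU, Trim47-/- untreated, wild type after 5-FU and wild type untreated; each panel has its own axis from 0. In Trim47-/- the neutrophil, monocyte, erythroid and megakaryocyte sums stand higher after 5-FU, and the LT-HSC and B cell sums lower.

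The response of Trim47-/- cells was then set against that of wild type by the interaction, the log2 change in Trim47-/- minus that in wild type. It was called for 8957 of 16319 genes (54.9%), 4313 higher in Trim47-/- (26.4%) and 4644 lower (28.5%). The median log2 change of all genes was -0.0052 in Trim47-/- and 0.012 in wild type, both held near 0 by the scaling. Pearson's r between the responses, which share no libraries, was 0.263 across genes, as a description since genes are not independent. Of the 657 genes at least 2-fold higher in Trim47-/-, 466 had a higher response than wild type, 28 a lower and 163 no called difference. In wild type, 141 of them changed at least 2-fold the same way and 125 at least 2-fold the opposite way. Of the 1526 genes at least 2-fold lower, 1035 had a lower response than wild type, 56 a higher and 435 no called difference, and 424 changed 2-fold the same way in wild type against 30 the opposite way. The interaction uses the same Trim47-/- values that chose these genes, so these shares are a description.

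The activated myeloid genes Acod1 and Nlrp3 had fitted responses of opposite sign in the genotypes. Acod1 in wild type had 2.97, 2.47 and 2.09 CPM after 5-FU, against 29.8, 28.5 and 27.4 CPM in untreated libraries, a log2 change of -3.51 ± 0.12, while it rose in Trim47-/-, and the interaction was 4.90 ± 0.16 (SE, adjusted p = 8.02e-10). Nlrp3 in wild type had 21.9, 24.5 and 20.3 CPM after 5-FU, against 151, 149 and 141 CPM in untreated libraries, a log2 change of -2.72 ± 0.10, with an interaction of 4.03 ± 0.14 (SE, adjusted p = 1.03e-09). In both genes the untreated wild-type libraries stood above all Trim47-/- libraries of either group. Ahnak, a scaffold protein gene, had 1008, 1027 and 1021 CPM after 5-FU, against 402, 408 and 406 CPM in untreated libraries in Trim47-/-, and in wild type 237, 231 and 232 CPM after 5-FU, against 808, 821 and 802 CPM in untreated libraries, with an interaction of 3.12 ± 0.024 (SE, adjusted p = 8.44e-15). Pmaip1 had a log2 change of -0.90 ± 0.038 in wild type and an interaction of 3.08 ± 0.054, Thbs1, an adhesive glycoprotein gene, -2.41 ± 0.049 and 3.27 ± 0.068, Mmp19 -1.17 ± 0.20 and 3.76 ± 0.28, and Lgals3 -0.79 ± 0.15 and 3.21 ± 0.21. Cd83, a dendritic cell activation antigen, had a log2 change of -1.57 ± 0.033 in Trim47-/- and -4.71 ± 0.038 in wild type, so its positive interaction of 3.14 ± 0.05 came with negative changes of unequal size. By list, the interaction was higher for 22 and lower for 2 of 29 inflammasome and activated myeloid genes, and higher for 20 and lower for none of 26 monocyte genes. For NF-kB targets it was higher in 28 and lower in 6 of 40, with median log2 changes of -0.12 in Trim47-/- and -1.23 in wild type, and for the unfolded protein response it was higher in 27 and lower in 1 of 32, with medians of 0.34 in Trim47-/- and -0.13 in wild type.

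LT-HSC identity genes differed the other way, with the interaction lower for 33 and higher for 2 of 40, and median log2 changes of -0.86 in Trim47-/- and 0.05 in wild type. Slamf1 had a log2 change of 0.99 ± 0.12 in Trim47-/- and 3.11 ± 0.12 in wild type, an interaction of -2.12 ± 0.17 (SE, adjusted p = 1.36e-06). Esam, an endothelial and stem cell adhesion gene, had -0.65 ± 0.078 in Trim47-/- and 1.47 ± 0.077 in wild type, an interaction of -2.12 ± 0.11, and Tal1, a stem cell and erythroid factor, had -0.79 ± 0.04 in Trim47-/- and 0.84 ± 0.04 in wild type, an interaction of -1.63 ± 0.057. The Hox list followed, with 15 of 21 lower, none higher, and medians of -0.28 in Trim47-/- and 0.37 in wild type. GIMAP GTPases were lower in 7 of 8, with medians of -1.8 in Trim47-/- and -0.15 in wild type. Gimap8 in wild type had 16.7, 17.3 and 19.0 CPM after 5-FU, against 17.7, 18.1 and 17.6 CPM in untreated libraries, with no separation of the groups, and an interaction of -2.95 ± 0.11 (SE, adjusted p = 1.84e-09). Immediate early genes were lower in 23 and higher in 8 of 36, with medians of -1.15 in Trim47-/- and -0.65 in wild type. Fos changed by -0.65 ± 0.013 in wild type and its interaction was -2.08 ± 0.019. Egr3 and Atf3 fell in Trim47-/- but had positive interactions, of 0.93 ± 0.075 for Egr3 and 1.03 ± 0.06 for Atf3. Erythroid genes were lower in 24 and higher in 1 of 31, with medians of 0.63 in Trim47-/- and 1.32 in wild type: Gata1 changed by 1.94 ± 0.14 in wild type and its interaction was -0.64 ± 0.20. The genes with the most negative interactions beside Gimap8 were Zfp532 (-2.64 ± 0.22), Eps8l1 (-2.55 ± 0.11), Zc3h6 (-2.55 ± 0.17), Gprc5b (-2.49 ± 0.12), the germ cell helicase gene Ddx4 (-2.20 ± 0.12), Zfp113 (-2.17 ± 0.14) and the melanocortin receptor gene Mc5r (-2.17 ± 0.16).

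The interaction of neutrophil genes was higher in 14 and lower in 5 of 27, with medians of 1.03 in Trim47-/- and 0.45 in wild type. Lipg changed by 5.01 ± 0.17 and Col18a1 by 3.90 ± 0.10 in wild type, both with the sign they had in Trim47-/-, and with interactions of -1.12 ± 0.25 for Lipg and -0.45 ± 0.15 for Col18a1. B and plasma cell genes had medians of -2.01 in Trim47-/- and -1.32 in wild type, with the interaction lower in 11 and higher in 1 of 24. In wild type their sums were 1130.0 to 1196 CPM after 5-FU and 3250.0 to 3281 CPM untreated, and the LT-HSC sums were 6538 to 6783 CPM after 5-FU and 10760.0 to 10990.0 CPM untreated. Without Nr4a1 and Egr1 the wild-type LT-HSC sums were 2922 to 3153 CPM after 5-FU and 2561 to 2721 CPM untreated, the opposite order to that in Trim47-/-. The wild-type neutrophil sums were 5216 to 5309 CPM after 5-FU and 4129 to 4289 CPM untreated, and the monocyte sums 1513 to 1549 CPM after 5-FU and 2238 to 2319 CPM untreated.

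**Figure D5:**
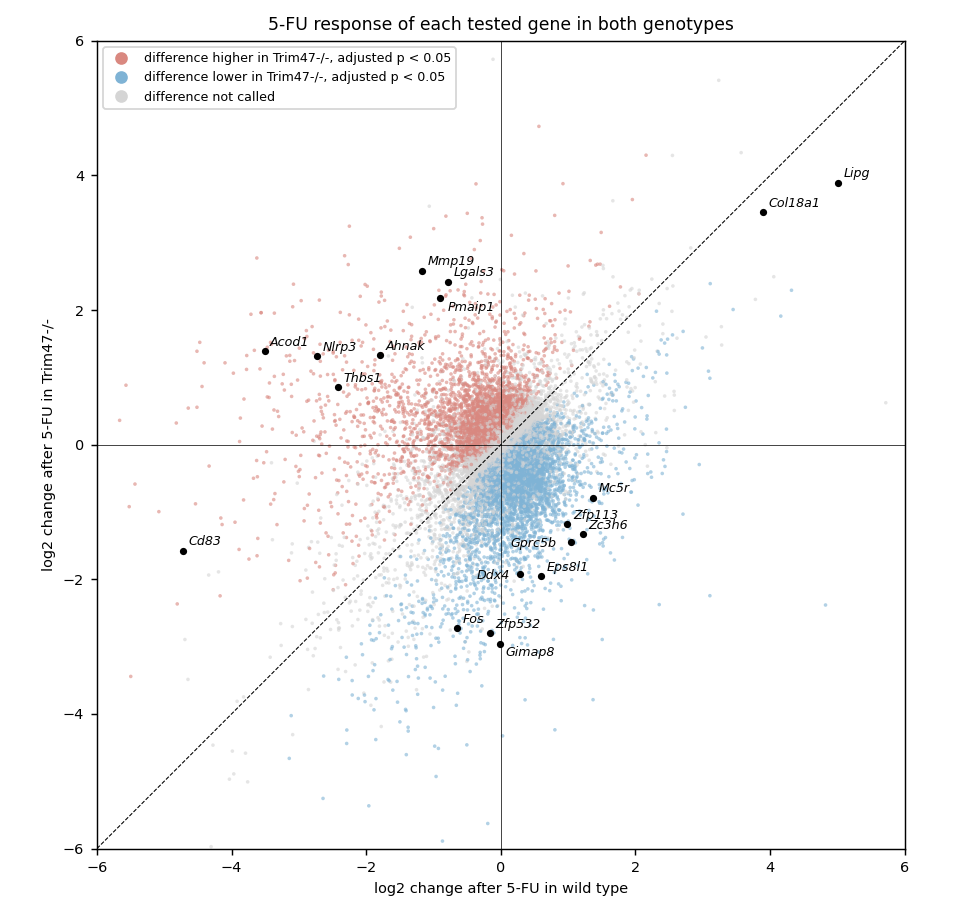
Fitted log2 change after 5-FU in Trim47-/- (vertical) against wild type (horizontal) for each tested gene, with 79 genes beyond the plotted range of 6 left out; red and blue points had a called interaction, higher or lower in Trim47-/-, grey points did not, and the dashed line marks equal responses. Acod1 and Nlrp3 stand in the quadrant of opposite signs at upper left, and Gimap8 and Zfp532 low on the vertical axis and near 0 on the horizontal.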

How the data were processed

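Poly-A selected, stranded paired-end RNA libraries were made from RNA with an integrity number above 7.0, per the labels' protocols. The submitters' processing notes name CASAVA 1.8, GRCm38, HISAT2, StringTie and edgeR; the sources used here do not name the counting program or its strand setting. The authors deposited raw read counts per gene and FPKM, and the FPKM equal the counts scaled by gene length and library total. All 28999 genes of the count table entered edgeR 4.0.16 in R 4.3.3 (TMM scaling, filterByExpr), and 16319 passed. A quasi-likelihood model with 1 mean per group over all 12 libraries gave the Trim47-/- response and the interaction, with Benjamini-Hochberg adjustment over all genes and a threshold of 0.05. SE is the log2 change divided by the square root of F. CPM were computed from the counts.

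Depth, replicate spread and counts per group are given with the results. Alternatives were DESeq2 1.42.0 as a test and for size factors, no filter on low counts, a replicate block, the 6 Trim47-/- libraries alone, an adjusted p under 0.01, a 2-fold minimum, a test against 1.5-fold, thinning and leaving out each library. The fits were tested on simulated data.

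The members and gene lists were chosen with earlier results of these data known. Named genes were Trim47 and Trim65, the 12 rising and 12 falling genes of largest change with at least 10 CPM and groups that did not overlap, the 8 highest and 8 lowest interactions, and for each list up to 3 called members of smallest p each way with its defining genes. Gene models without a name and receptor segments were left out of the ranking. Other list members named in the text were chosen after their values were seen. Promoters are the 250 bases before each gene start in RefSeq, GRCm38.p6. A few list members are not reported here by name but are included in the counts, medians and sums.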

Additional observations from a re-analysis of the deposited data

Results flagged for a closer look

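The following named genes had a 5-FU response in Trim47-/- that differed from wild type by at least 1 on the log2 scale, with a called interaction in edgeR's test. Each value is the log2 change in Trim47-/- minus that in wild type, and no explanation was weighed. Among genes that rose most in Trim47-/-, it was 1.20 for Emilin2, 2.58 for Gas7, 3.76 for Mmp19, 2.72 for the pseudogene Scp2-ps2, 3.21 for Lgals3, 2.93 for Slfn2, 3.04 for Noct and -1.12 for Lipg. Among genes that fell most it was -2.06 for Obsl1, -1.30 for Shisa8, -1.76 for Arpp21, -2.95 for Gimap8, -2.01 for Mmp2, -1.02 for Cd69, -2.14 for Gdf15, -1.63 for Gas6, -2.64 for Zfp532, -2.14 for Sgsm1 and -2.08 for Fos. For Trim47 it was -1.34, with a log2 change of -0.80 ± 0.12 in Trim47-/- and 0.54 ± 0.11 in wild type. Of the remaining genes with the highest interactions it was 4.90 for Acod1, 4.03 for Nlrp3, 3.27 for Thbs1, 3.14 for Cd83, 3.12 for Ahnak and 3.08 for Pmaip1. Of those with the lowest it was -2.55 for Eps8l1, -2.55 for Zc3h6, -2.49 for Gprc5b, -2.20 for Ddx4, -2.17 for Zfp113 and -2.17 for Mc5r.

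The libraries of Scp2-ps2 in wild type had 36.7, 8.79 and 10.4 CPM after 5-FU, against 29.5, 7.48 and 31.6 CPM in untreated libraries, so its interaction rests on libraries that differ several-fold inside a group.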

How the results depend on the processing

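In a test against a change of at least 1.5-fold, 788 genes were higher and 1634 lower in the Trim47-/- response, and 1297 and 1616 in the interaction. The share of called genes that were higher was then 32.5%, against 49% without a fold minimum and 30.1% at 2-fold. At 2-fold the Trim47-/- counts were 657 and 1526 and the interaction counts 1192 and 1582. Restricting the 2-fold genes to those whose libraries lay within 1.5-fold in both groups, an alternative chosen after seeing the data, left 388 higher and 776 lower. Leaving out 1 library at a time gave 4468 to 4535 higher and 4693 to 4758 lower genes, 646 to 677 and 1519 to 1566 at 2-fold, and 4128 to 4224 and 4408 to 4512 in the interaction. The DESeq2 test called 4461 and 4590, and no filter on low counts 4166 and 5310. Same-numbered Trim47-/- libraries did not deviate together (r = -0.120, 0.062 and -0.017). With replicates close to counting noise this cannot exclude a pairing by number. A replicate block gave 4782 higher and 4960 lower. Of 626 values of 42 named results under the alternatives, 624 kept direction and call; the 2 exceptions were Trim47 and Trim65 in the 1.5-fold test. Of 1120 list counts under the alternatives, 89 moved by over 1.5 times, 58 of them in the 1.5-fold test. In that test 3 genes of oxidative phosphorylation were higher, against 69 without a fold minimum, 0 of G2/M against 22, and 6 of the unfolded protein response against 22. List medians near 0 (G1/S, interferon, mitochondrially encoded and fluoropyrimidine genes) crossed 0 between alternatives. Genes at a few counts per library limit the B, T and stromal lists.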
